A study of Mus musculus with 14 samples.

Results

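Chaperones are proteins that help other proteins to fold, and the genes described here encode those of the cytosol, the nucleus and the mitochondrion, together with their helpers. Members were the rows of the count table whose Entrez identifier has a mouse symbol starting with Hsp90, Hspa, Hspb, Hspd, Hspe, Hsph, Dnaja, Dnajb or Dnajc, or one of Cct2 to Cct8, Tcp1, Hsf1 and Hsf2. Hspa5, Hsp90b1, Dnajb9 and Dnajc3, which act in the endoplasmic reticulum, were left out by name, as were pseudogenes and genes that stayed under 1 CPM in all libraries (CPM scales a gene's counts to a common library total). This gave 69 members of the 27179 genes in the table. They were 2 HSP90 genes, 11 of the HSP70 and HSP110 family, 2 of mitochondrial HSP60 and HSP10, 9 of the CCT group, 39 J proteins, 4 with Hspb symbols and 2 heat shock factors. The rule keeps several members that act in the endoplasmic reticulum or its membrane, among them Dnajb11, Dnajc10, Dnajc1, Dnajb12, Dnajb14, Dnajc18 and Hspa13, so the set is wider than the cytosol and mitochondrion.

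The libraries are bulk RNA sequencing of CD4 T cells from C57BL/6 mice, started as naive cells, grown for 3.5 days on plate-bound antibodies to CD3 and CD28, and sorted before lysis. Th1 names the Th1 culture (5 libraries). TfhA names a follicular helper (Tfh) culture with an antibody against TGF-β (4 libraries, replicates 1, 2, 4 and 5), and Tfh5 a Tfh culture given TGF-β at 5 ng/ml (5 libraries). No genetic change is named for any group, the factors added to the Th1 culture and the age of the mice were not given in the sources used here, and the cells are cultured cells and not follicular helper cells from an animal. The labels do not tie libraries to separate mice or dishes, and p-values therefore measure the spread between these samples, which may be technical. In lists of values below, libraries stand in the order of their replicate numbers.

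Library totals ran from 8805921 to 16108059 counts. All 6 CD4 T cell markers (Cd4, Cd3e, Cd3d, Cd3g, Cd28 and Trac) were present, and the libraries' sums spanned 3748 to 3999 CPM for Th1, 3999 to 4843 for TfhA and 6435 to 6776 for Tfh5. Tbx21 and Ifng, genes of Th1 cells, averaged 244 and 623 CPM in Th1, 61.6 and 17.3 in TfhA, and 1.90 and 0.832 in Tfh5. Smad7, a target of TGF-β signalling, averaged 95.4 CPM in Tfh5 against 14.9 in TfhA and 20.1 in Th1. Maf, Il17a and Cxcr5 were the other listed condition markers. In Th1, TfhA and Tfh5, Maf averaged 19.6, 31.7 and 1419 CPM, Il17a 0.236, 0.428 and 317, and Cxcr5 1.77, 1.95 and 79.3. Between TfhA and Th1, Cxcr5 was not called (edgeR adjusted p = 0.720). Of other cell types, 4 B cell markers summed to 0.378 to 1.68 CPM for Th1, 3.93 to 6.65 for TfhA and 0.408 to 1.70 for Tfh5. The sum of 4 CD8 and NK cell markers was at most 34.0 CPM in any library, with Ncr1 at 0 counts throughout, and both red cell markers were at 0 counts. Of 6 monocyte, macrophage and dendritic cell markers, Adgre1 had 0 counts and Lyz2, Csf1r and Itgax were under 0.2 CPM on average in each group. That list summed to 156 to 215 CPM for Th1, 44.0 to 90.0 for TfhA and 5.61 to 8.74 for Tfh5, most of it Cd74, the MHC class II invariant chain, at 175 ± 22.9 CPM in Th1, 60.5 ± 17.8 in TfhA and 6.84 ± 1.30 in Tfh5. H2-Aa, an MHC class II chain, went the other way between Th1 and TfhA, at 0.361 ± 0.143 CPM in Th1 and 6.99 ± 1.16 in TfhA (18.7-fold higher, edgeR adjusted p = 9.18e-09), with 0 counts in Tfh5. Mitochondrially encoded genes took 5.91% ± 0.871 of counts in Th1, 5.82% ± 1.30 in TfhA and 8.03% ± 0.594 in Tfh5. The part of these shares and markers in the results below was not tested.

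HSP70 binds short exposed stretches of unfolded protein in a cycle driven by ATP. J proteins deliver the clients and trigger ATP hydrolysis, and nucleotide exchange factors such as the HSP110 proteins reset the cycle. HSP90 takes over many signalling proteins and receptors at a late stage of folding, and the barrel-shaped CCT complex folds actin and tubulin. Heat shock factors switch on many of these genes by binding repeats of the unit GAA. Dividing T cells make much new protein and carry high levels of the constitutive chaperones.

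Chaperone transcripts made up less of the RNA in Tfh5 than in the other cultures. The 69 members summed to 10495 ± 255 CPM in Th1, 9959 ± 580.3 in TfhA and 7084 ± 104 in Tfh5 (mean ± SD over libraries, n = 5, 4 and 5), and the Tfh5 libraries, from 6959.8 to 7182, lay below every library of the other groups. Most of the difference between TfhA and Tfh5 lay in 2 groups of genes. HSP90 transcripts summed to 2504 ± 205 CPM in TfhA and 1614 ± 78.0 in Tfh5, and CCT transcripts to 3429.7 ± 203 and 2158 ± 31.3. J protein transcripts summed to 2403 ± 172 and 2055 ± 90.8 CPM, with libraries close together but not overlapping, from 2245 to 2613 in TfhA and from 1968 to 2205 in Tfh5. In bulk RNA, fewer cells of a type and less RNA per cell cannot be told apart.

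Of the 69 members, 67 passed the filter on low counts and were tested, and Dnajb3 and Dnajb7 were not. Between Tfh5 and TfhA, which differ in TGF-β signal, 12 members rose and 30 fell in Tfh5 (edgeR quasi-likelihood test, adjusted p under 0.05 over 13075 genes). Of all tested genes 27.4% were called higher, 30.1% lower and 57.5% either way, and the 42 calls among 67 members are a share near that last figure. The median log2 fold change was -0.19 over the 67 members and -0.01 over all tested genes. At 2-fold or more, 3 members were higher and 7 lower, against 10.6% and 13.1% of all genes, and the libraries of the pair did not overlap for 36 members, against 44.2% of all genes. Between TfhA and Th1, 20 members rose and 10 fell in TfhA (all genes 23.2% and 21.6%, or 44.8% either way), with a median of 0.07 against 0.03. At 2-fold or more, 2 members were higher and 0 lower (all genes 5.37% and 8.29%), and 24 did not overlap (38.1%). The 20 became 12 without TfhA replicate 4. Between Tfh5 and Th1, 12 rose and 28 fell in Tfh5 (all genes 31.5% and 33.0%, or 64.6% either way), with medians of -0.18 and -0.01. At 2-fold or more, 6 were higher and 8 lower (12.6% and 15.3%), and 29 did not overlap (50.2%). These comparisons share libraries pairwise, so their counts are not independent of each other.

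**Figure D1:**
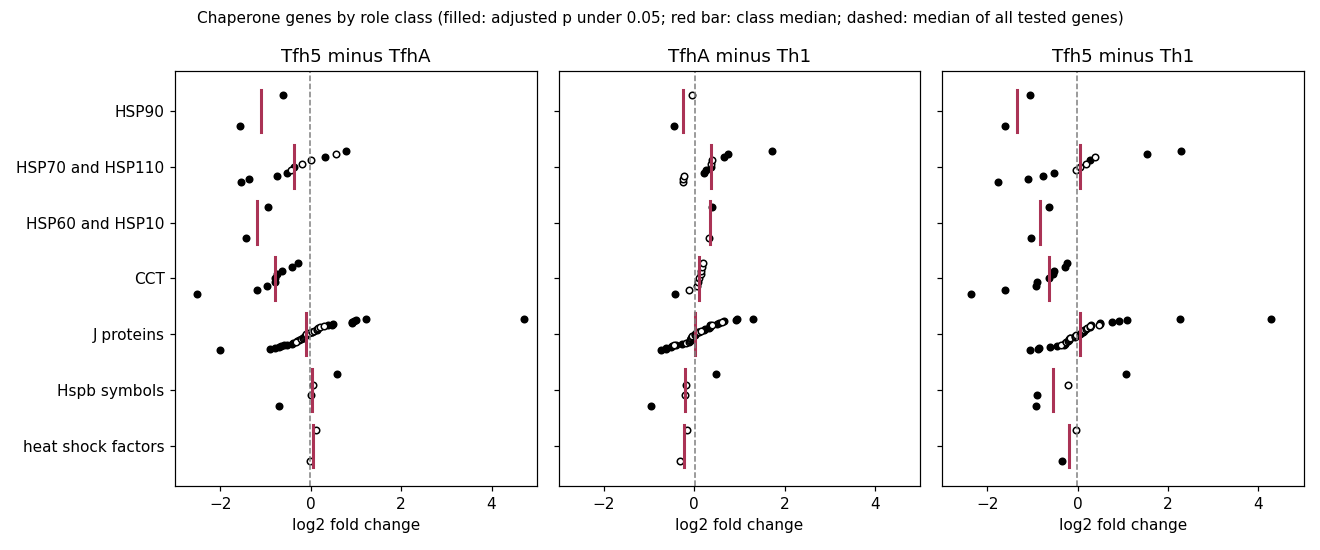
Log2 fold change (x axis) of the 67 tested members in each of 3 comparisons, by role class (y axis), each point a gene, filled where the adjusted p was under 0.05, with class medians as red bars and the median of all tested genes dashed. The J protein points beyond 4 are Dnajc6, whose fitted value rests on 3 to 7 counts in the lower group. The CCT genes lie left of 0 in both comparisons with Tfh5, while J proteins lie on both sides. For Cct6b, which met the 1 CPM limit in Th1 and TfhA alone, a lower level in Tfh5 follows from how members were chosen.

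The cytosolic HSP90 genes were both lowest in Tfh5. Hsp90ab1 (Entrez 15516, mm10 chromosome 17, 45567778 to 45573261) encodes the constitutive form. Its level was 3823, 3172, 3182, 3239.5 and 3193 CPM in Th1, 2443, 2422, 2684 and 2183 in TfhA, and 1552, 1628, 1493, 1587 and 1692 in Tfh5. The 3 groups did not overlap and stepped down from Th1 to TfhA to Tfh5. It fell 1.53-fold from TfhA to Tfh5 (log2 fold change -0.61 ± 0.09, adjusted p = 2.53e-06) and 1.37-fold from Th1 to TfhA (log2 fold change -0.45 ± 0.09, adjusted p = 2.77e-04). Hsp90aa1 (Entrez 15519, chromosome 12, 110691036 to 110696395) encodes the form that rises with stress. Its level was 71.0, 69.8, 81.8, 71.1 and 72.6 CPM in Th1, 66.2, 69.4, 75.2 and 74.6 in TfhA, and 12.3, 27.6, 25.6, 28.0 and 26.5 in Tfh5. Th1 and TfhA lay together, and every Tfh5 library lay below both, with replicate 1 lowest. It fell 2.97-fold from TfhA (log2 fold change -1.57 ± 0.15, adjusted p = 2.60e-09), with a log2 fold change of -1.40 without Tfh5 replicate 1, and did not pass between TfhA and Th1 (log2 fold change -0.04 ± 0.15, adjusted p = 0.857).

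Set against each other within a library, the HSP90 pair shifted between cultures. The ratio of Hsp90aa1 to Hsp90ab1 counts was 0.0222 ± 0.00255 in Th1, 0.0295 ± 0.00319 in TfhA and 0.0151 ± 0.00406 in Tfh5 (SD, n = 5, 4 and 5). By library it was 0.00792, 0.0170, 0.0171, 0.0176, 0.0156 in Tfh5, and from 0.0271 to 0.0342 in TfhA. It was 2.03-fold lower in Tfh5 than in TfhA (exact permutation test on log2 ratios, two-sided, p = 0.00794, adjusted p = 0.0238 over 6 such tests). It was 1.33-fold higher in TfhA than in Th1 (exact permutation test, p = 0.0159, adjusted p = 0.0317) and 1.53-fold lower in Tfh5 than in Th1 (exact permutation test, p = 0.00794, adjusted p = 0.0238). The smallest p these group sizes allow is 0.00794. With medians in place of means the Tfh5 and TfhA difference did not pass (exact permutation p = 0.0714). In TfhA, Hsp90ab1 stood at 965 and Hsp90aa1 at 21.8 CPM per kilobase of transcript. Of the 50-base windows of the Hsp90aa1 transcript, 58.5% also occur in GENCODE transcripts of other genes (Gm12346, Gm5844 and Gm5511 share most), against 4.49% for Hsp90ab1. The treatment of reads with several matches was not given in the sources used here, so the level of Hsp90aa1 may lack part of its reads.

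**Figure D2:**
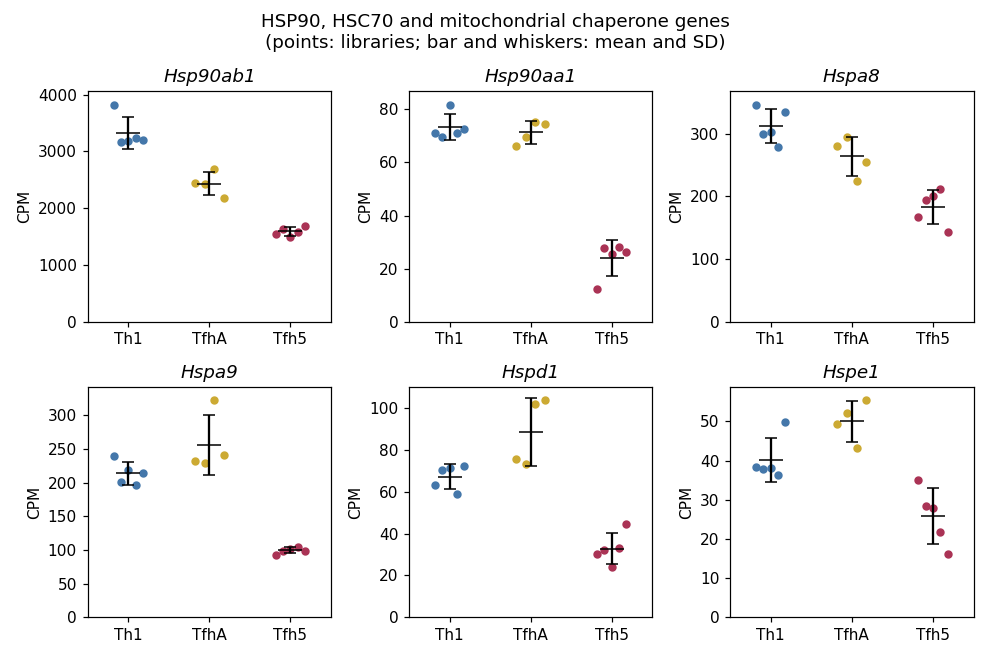
CPM (y axis, from 0) of 6 chaperone genes in each library of Th1, TfhA and Tfh5 (x axis), with mean and SD as bar and whiskers. The Tfh5 points lie below those of TfhA in all 6 panels.

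Of the mitochondrial chaperone genes, Hspd1, Hspe1 and Hspa9 were lowest in Tfh5. HSP60, encoded by Hspd1, forms a folding chamber in the mitochondrial matrix that HSP10, encoded by Hspe1, closes as a lid, and mortalin, encoded by Hspa9, is the HSP70 that pulls proteins in. Hspd1 and Hspe1 lie head to head on chromosome 1 (55077833 to 55088243 and 55088148 to 55091317), with overlapping starts, so that a single stretch is the promoter of both. Whether counting used strand is not stated, and reads from that overlap cannot be told apart without it. It is shown for the heat shock element it holds, from RefSeq (GRCm38.p6), 250 bases before to 50 after the start of Hspe1, plus strand, chr1:55087898-55088197. Capitals mark overlapping matches to the 3-unit heat shock element, which is GAA, any 2 bases, TTC, any 2 bases and GAA, and to its reverse complement, TTC, any 2 bases, GAA, any 2 bases and TTC. They begin 89 bases before the Hspe1 start.
Hspe1: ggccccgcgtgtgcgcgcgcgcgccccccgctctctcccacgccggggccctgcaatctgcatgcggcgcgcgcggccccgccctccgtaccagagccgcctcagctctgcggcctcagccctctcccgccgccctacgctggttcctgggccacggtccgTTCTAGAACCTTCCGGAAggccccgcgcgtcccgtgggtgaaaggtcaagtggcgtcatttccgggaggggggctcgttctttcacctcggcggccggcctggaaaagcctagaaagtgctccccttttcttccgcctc

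This element, searched on both strands, occurs in 198 of 32851 RefSeq promoters of this length (0.603%) and in 6 of 74 promoters of members (8.11%). A gene can have several promoters, and these belong to 4 of the 56 members with a RefSeq promoter. The members are Hspd1 and Hspe1, which share 1 stretch, Hsph1 and Dnajb6. The 2-unit forms, GAA and TTC or TTC and GAA with any 2 bases between, are parts of the longer one. They occur in 15.1% of all promoters and in 23% of those of members, which belong to 15 members. Hspd1 stood at 63.0, 70.2, 71.4, 59.0 and 72.3 CPM in Th1, 75.5, 73.4, 102 and 104 in TfhA, and 30.1, 32.1, 24.1, 32.9 and 44.6 in Tfh5. Every Tfh5 library lay below every library of the other groups, and within TfhA replicates 4 and 5 were the higher pair. It fell 2.69-fold from TfhA to Tfh5 (log2 fold change -1.43 ± 0.14, adjusted p = 3.82e-09). Hspe1 stood at 38.3, 37.9, 38.2, 36.3 and 49.95 CPM in Th1, 49.4, 52.0, 43.2 and 55.4 in TfhA, and 34.9, 28.5, 27.9, 21.7 and 16.2 in Tfh5, again with Tfh5 below both groups, and fell 1.94-fold (log2 fold change -0.96 ± 0.16, adjusted p = 1.24e-05). Hspa9 (Entrez 15526, chromosome 18) stood at 239, 200.3, 218, 196 and 215 CPM in Th1, 231, 229, 322 and 241 in TfhA, and 93.1, 98.4, 102, 105 and 99.1 in Tfh5. The Tfh5 libraries were close together and far below the rest, and TfhA replicate 4 was the highest library. Hspa9 fell 2.57-fold from TfhA (log2 fold change -1.36 ± 0.10, adjusted p = 2.06e-11) and 2.15-fold from Th1 (log2 fold change -1.10 ± 0.10, adjusted p = 2.61e-10).

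Between TfhA and Th1, the mitochondrial genes differed less. Hspd1 rose 1.32-fold in TfhA (log2 fold change 0.40 ± 0.14, adjusted p = 0.0210), a call lost without Th1 replicate 4, or TfhA replicate 4 or 5 (adjusted p up to 0.0976). Hspa9 rose 1.20-fold (log2 fold change 0.26 ± 0.10, adjusted p = 0.0367), lost without Th1 replicate 2, 3, 4 or 5, or TfhA replicate 4, and with upper quartile scaling, with no filter on low counts, with the replicate block or in a fit of only the 2 groups (adjusted p up to 0.255). Hspe1 did not pass (log2 fold change 0.32 ± 0.15, adjusted p = 0.0975), though it did without Th1 replicate 5, without Tfh5 replicate 5 or in a fit of only the 2 groups. The ratio of Hspe1 to Hspd1 counts ran 1.16, 0.886, 1.16, 0.660, 0.363 over the Tfh5 libraries, a wider spread than the 0.535 to 0.691 of Th1, and Tfh5 replicate 5 had the highest Hspd1 and the lowest Hspe1 of its group. The ratio did not differ beyond this spread between Tfh5 and TfhA (exact permutation test, log2 difference 0.45 ± 0.35, p = 0.278, adjusted p = 0.333), TfhA and Th1 (exact permutation test, p = 0.722, adjusted p = 0.722) or Tfh5 and Th1 (exact permutation test, p = 0.262, adjusted p = 0.333, and p = 0.0159 without Tfh5 replicate 5). Transcripts of Hspd1 and Hspe1 share 44.8% and 44.8% of their 50-base windows with transcripts of other genes, and Hspa9 4.10%.

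A list of 12 other mitochondrial chaperone and protease genes had 1 member higher and 7 lower in Tfh5 than in TfhA, with a median log2 fold change of -0.48 (all tested genes 27.4% higher and 30.1% lower, median -0.01), so the number called is near the share of all genes. The matrix protease gene Lonp1 fell from 76.1 ± 15.1 to 29.2 ± 6.98 CPM (2.599-fold), the disaggregase gene Clpb 2.06-fold and the import receptor gene Tomm70a 1.53-fold. Hscb, a J protein of iron-sulphur cluster assembly, was the single gene called higher and rose 1.72-fold, from 77.6 ± 8.10 to 133 ± 26.8 CPM. Of the exchange factors of mortalin, Grpel1 fell 1.38-fold, from 69.8 ± 3.34 CPM in TfhA to 50.6 ± 7.80 in Tfh5 (edgeR adjusted p = 5.82e-04). Grpel2, at a lower level, had its highest mean in Tfh5 (18.4 ± 3.51 CPM against 16.4 ± 1.81 in TfhA) but did not pass against TfhA (adjusted p = 0.372). Between TfhA and Th1 the list had 1 higher and 2 lower (all tested genes 23.2% and 21.6%), among them the protease gene Htra2, which fell 2.39-fold. The 2 became 1 without Th1 replicate 2, 3 or 4, TfhA replicate 1, 2 or 4, or Tfh5 replicate 3, and with the replicate block.

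Every gene for a CCT subunit fell in Tfh5. The complex is a double ring of 8 different subunits encoded by Tcp1 and Cct2 to Cct8, and Cct6b is a relative of Cct6a known from testis. All 8 subunit genes were lower in Tfh5 than in TfhA and all 8 lower than in Th1 by the test, while of all tested genes 30.1% and 33.0% were called lower. Cct6b is given apart, since it met the 1 CPM limit in Th1 and TfhA alone. Tcp1 (Entrez 21454, chromosome 17, 12916329 to 12925067), encoding the first subunit, stood at 727, 738, 723, 758 and 767 CPM in Th1, 555, 497, 617 and 544 in TfhA, and 220.1, 231, 254, 271 and 235 in Tfh5. Its groups did not overlap, and the level stepped down from Th1 through TfhA to Tfh5. The Tcp1 transcript shares 22.15% of its 50-base windows with transcripts of Acat3, Acat2 and Tcp1-ps1, with both strands searched. Tcp1 fell 2.28-fold from TfhA to Tfh5 (log2 fold change -1.19 ± 0.09, adjusted p = 1.57e-11) and 1.34-fold from Th1 to TfhA (log2 fold change -0.42 ± 0.09, adjusted p = 3.03e-04), the single CCT gene called in the latter comparison.

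The other subunits fell by unequal amounts between TfhA and Tfh5. Cct6a stood at 221, 232, 229.9 and 251 CPM in TfhA and 94.9, 132, 118, 134 and 119.7 in Tfh5 and fell 1.95-fold (log2 fold change -0.96 ± 0.10, adjusted p = 9.09e-09). Cct3 (log2 fold change -0.80 ± 0.09), Cct7 (-0.80 ± 0.09) and Cct8 (-0.75 ± 0.09) fell by similar amounts. Cct5 (-0.63 ± 0.09) and Cct2 (-0.42 ± 0.09) followed. Cct4 changed least, from 552 ± 45.5 to 449.9 ± 16.2 CPM (log2 fold change -0.29 ± 0.09, adjusted p = 0.00586). In all 8 subunit genes no Tfh5 library reached the lowest TfhA library, which holds for 44.2% of all tested genes in one direction or the other. Against Th1, Cct7 (-0.92 ± 0.09), Cct6a (-0.89 ± 0.09), Cct3 (-0.62 ± 0.09), Cct8 (-0.55 ± 0.08), Cct5 (-0.51 ± 0.09) and Cct2 (-0.28 ± 0.08) were lower, and so was Cct4 (-0.23 ± 0.08), a call lost without Th1 replicate 5 (adjusted p up to 0.0608). Whether the subunits' fold changes differ from each other was not tested.

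Between TfhA and Th1, the other subunit genes did not pass, with log2 fold changes from -0.12 for Cct7 to 0.20 for Cct8 (log2 fold change 0.20 ± 0.09, adjusted p = 0.0586). Cct8 did pass with DESeq2, with limma-voom and without TfhA replicate 2. Cct6b was near the limit of the rule, at 0.624, 1.39, 0.832, 0.763 and 0.761 CPM in Th1, 0.606, 1.28, 0.866 and 1.17 in TfhA, and 0, 0, 0.377, 0.0949 and 0.299 in Tfh5. It had 9 counts over the Tfh5 libraries and 42 over TfhA. With no Tfh5 library at 1 CPM, a lower level there follows from how members were chosen, and no test is given. Per kilobase of transcript, Cct5 (298 CPM per kilobase), Cct2 (281), Tcp1 (226), Cct4 (222) and Cct8 (199) were the highest CCT genes in TfhA, above Cct7 (118) and Cct3 (112). Cct6a had no matched transcript and is not placed in this order.

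**Figure D3:**
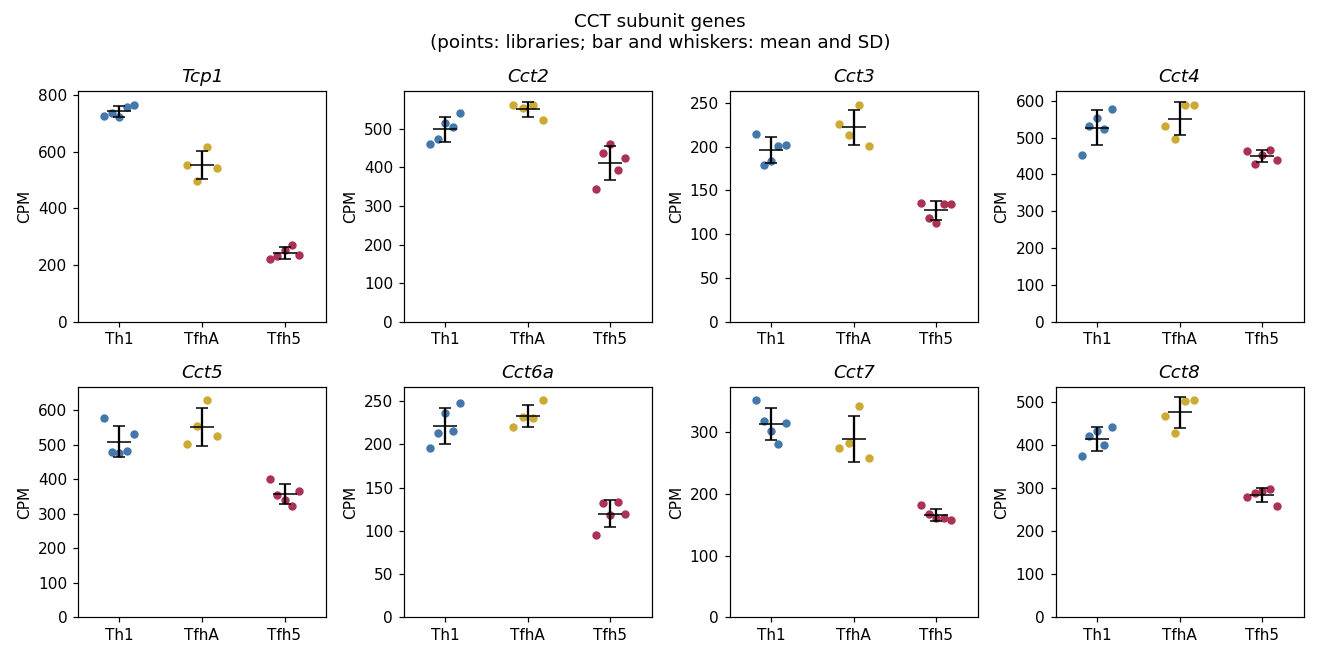
CPM (y axis, from 0) of the 8 genes for CCT subunits in each library of Th1, TfhA and Tfh5 (x axis), with mean and SD. Tfh5 lies below TfhA in each panel, in ratio by most for Tcp1 and by least for Cct4.

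Helpers of CCT held calls in both directions. Prefoldin hands actin and tubulin to CCT, and tubulin cofactors take the product on. Of 13 such genes, 5 were higher and 3 lower in Tfh5 than in TfhA, with a median log2 fold change of 0.15, a number called near the 57.5% of all tested genes. Pdcl, a phosducin-like CCT partner, rose 1.82-fold and the tubulin cofactor gene Tbca 1.53-fold (182 ± 23.7 to 279 ± 66.6 CPM). Of the prefoldin genes, Pfdn6 (1.64-fold), Pfdn1 (1.44-fold) and Pfdn2 (1.37-fold) were lower, and Pfdn5 was 1.35-fold higher.

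Among HSP70 and HSP110 genes the directions split by gene. Hspa8, encoding the constitutive HSC70, stood at 346, 300.2, 302, 278 and 334 CPM in Th1, 281, 294, 225 and 254 in TfhA, and 168, 195, 200.05, 211 and 143 in Tfh5. Tfh5 lay below both other groups. It fell 1.44-fold from TfhA (log2 fold change -0.52 ± 0.11, adjusted p = 2.11e-04) and 1.70-fold from Th1 (log2 fold change -0.77 ± 0.10, adjusted p = 5.14e-07), and between TfhA and Th1 it did not pass (log2 fold change -0.24 ± 0.11, adjusted p = 0.0730). That last difference passed without Th1 replicate 4, TfhA replicate 2 or Tfh5 replicate 5, with upper quartile scaling, with no filter on low counts or in a fit of only the 2 groups. Of its 50-base windows 74.8% are shared with other genes, the highest share of any member with a matched transcript. Hspa14, an HSP70 that sits on the ribosome together with the J protein encoded by Dnajc2, stood at 121, 114, 108, 106 and 118 CPM in Th1, 130.1, 124, 151 and 124 in TfhA, and 86.3, 79.4, 76.3, 73.9 and 80.1 in Tfh5. Tfh5 lay below both other groups. Hspa14 fell 1.67-fold from TfhA to Tfh5 (log2 fold change -0.74 ± 0.09, adjusted p = 1.10e-07), and its rise from Th1 to TfhA (log2 fold change 0.22 ± 0.09, adjusted p = 0.0442) was lost without Th1 replicate 2, 3, 4 or 5, or TfhA replicate 1 or 4, or Tfh5 replicate 2, 3 or 4, and with upper quartile scaling, with no filter on low counts, with the replicate block or in a fit of only the 2 groups (adjusted p up to 0.176). Dnajc2 fell 1.63-fold in Tfh5 (log2 fold change -0.71 ± 0.13, adjusted p = 4.34e-05).

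The HSP110 relatives moved differently from each other. Hspa4l encodes an HSP110 family exchange factor. Its level was 50.2, 69.5, 61.1, 59.8 and 61.3 CPM in Th1, 95.4, 92.6, 93.8 and 122 in TfhA, and 164, 197, 149, 191 and 170.2 in Tfh5. The groups did not overlap and stepped up from Th1 through TfhA to Tfh5. Hspa4l rose 1.72-fold with TGF-β (log2 fold change 0.79 ± 0.11, adjusted p = 1.40e-06), 1.67-fold from Th1 to TfhA (log2 fold change 0.74 ± 0.11, adjusted p = 5.88e-06) and 2.89-fold from Th1 to Tfh5. Hsph1, encoding HSP105, was highest in TfhA, at 56.0, 69.2, 81.4, 68.6 and 77.4 CPM in Th1, 99.3, 111, 123 and 113 in TfhA, and 76.4, 84.6, 83.6, 91.6 and 92.8 in Tfh5. It rose 1.58-fold from Th1 to TfhA (log2 fold change 0.66 ± 0.10, adjusted p = 1.39e-05) and fell 1.30-fold from TfhA to Tfh5 (log2 fold change -0.38 ± 0.10, adjusted p = 0.00342). Hspa4 stood at 267, 284, 304, 279 and 315 CPM in Th1, 376, 323, 415 and 383 in TfhA, and 351, 325, 307, 351 and 309 in Tfh5, rose 1.29-fold from Th1 to TfhA (log2 fold change 0.37 ± 0.09, adjusted p = 0.00153), and did not pass between Tfh5 and TfhA (log2 fold change -0.19 ± 0.09, adjusted p = 0.0749, though it passed without TfhA replicate 2).

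Hsph1 also holds the 3-unit element. Its promoter is shown from RefSeq (GRCm38.p6), minus strand, chr5:149636287-149636586, read 5′ to 3′, with the element (in the form that opens with TTC) and a separate 2-unit form in capitals. The longer match lies after the start site, in the last bases of the window. Dnajb6, the remaining member with the element, did not pass in any comparison and stood at 5.33 ± 0.763, 5.15 ± 0.521 and 5.69 ± 1.76 CPM in Th1, TfhA and Tfh5. It shares 42.8% of its 50-base windows with other genes, so its level may lack part of its reads. Its promoter (plus strand, chr5:29735648-29735947) was added to set a member with the element and no call beside them, with the element (in the form that opens with GAA) in capitals.
Hsph1: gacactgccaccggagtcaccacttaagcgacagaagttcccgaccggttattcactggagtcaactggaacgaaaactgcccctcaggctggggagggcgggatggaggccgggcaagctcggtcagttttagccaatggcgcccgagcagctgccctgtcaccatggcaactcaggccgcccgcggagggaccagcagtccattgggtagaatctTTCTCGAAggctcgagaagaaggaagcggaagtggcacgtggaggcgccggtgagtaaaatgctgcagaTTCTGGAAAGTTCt
Dnajb6: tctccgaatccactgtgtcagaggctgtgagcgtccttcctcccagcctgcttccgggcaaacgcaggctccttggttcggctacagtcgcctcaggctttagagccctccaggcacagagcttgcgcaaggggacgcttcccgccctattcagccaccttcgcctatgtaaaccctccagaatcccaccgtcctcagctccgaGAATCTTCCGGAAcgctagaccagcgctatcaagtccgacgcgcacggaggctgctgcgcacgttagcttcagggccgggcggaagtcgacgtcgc

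The 4 genes with this element had unequal values between TfhA and Tfh5. The log2 fold changes were -1.43 for Hspd1, -0.96 for Hspe1 and -0.38 for Hsph1, and Dnajb6 had a log2 fold change of 0.13 ± 0.23 that did not pass.

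The strongly heat-inducible HSP70 genes were near the limit of detection. Hspa1a stood at 0.499, 0.485, 0.0756, 0.208 and 0.152 CPM in Th1, 0.833, 0.427, 1.19 and 1.59 in TfhA, and 1.71, 1.33, 1.604, 0.475 and 2.17 in Tfh5. Hspa1b stood at 1.68, 0.624, 1.36, 0.971 and 0.914 CPM in Th1, 0.606, 1.02, 3.36 and 0.955 in TfhA, and 2.29, 1.02, 1.23, 0.664 and 2.02 in Tfh5. Hspa1a had 21, 42 and 82 counts over Th1, TfhA and Tfh5. It met the 1 CPM limit through TfhA and Tfh5 and in no Th1 library, so a difference from Th1 follows from how members were chosen and is given without a test. Between Tfh5 and TfhA it did not pass (log2 fold change 0.56 ± 0.50, adjusted p = 0.346). Hspa1b did not pass in any comparison, nor did Hspa1l. Both Hspa1a (66.3%) and Hspa1b (62.3%) share most of their 50-base windows with other genes, each other among them, so reads of the pair cannot be assigned with confidence. Genes that respond to cell handling summed to 528 to 764 CPM for Th1, 448 to 626 for TfhA and 499 to 668 for Tfh5. Of these 8, 3 were higher and 2 lower in Tfh5 than in TfhA (all tested genes 57.5% either way). In TfhA against Th1, 3 were higher and 4 lower (44.8%), and in Tfh5 against Th1, 4 were higher and 4 lower (64.6%). Of the handling genes, Fos was 5.97-fold and Egr1 3.90-fold higher in Tfh5 than in Th1. Atf3 was 72.2-fold, Junb 2.57-fold and Dusp1 2.37-fold lower in the same comparison. The part of the handling genes in the HSP70 levels was not tested. Hspa2, a minor HSP70 known from testis, stood at 4.68, 6.59, 3.93, 4.65 and 4.72 CPM in Th1, 3.18, 5.20, 3.57 and 4.88 in TfhA, and 1.14, 1.53, 2.26, 1.33 and 0.971 in Tfh5 and fell 2.91-fold in Tfh5 (log2 fold change -1.54 ± 0.29, adjusted p = 7.09e-05). Hspa13, an HSP70 of the endoplasmic reticulum, rose 1.24-fold (log2 fold change 0.31 ± 0.12, adjusted p = 0.0353), a call lost without TfhA replicate 1, 2 or 4, or Tfh5 replicate 2, and with the replicate block or in a fit of only the 2 groups (adjusted p up to 0.113).

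**Figure D4:**
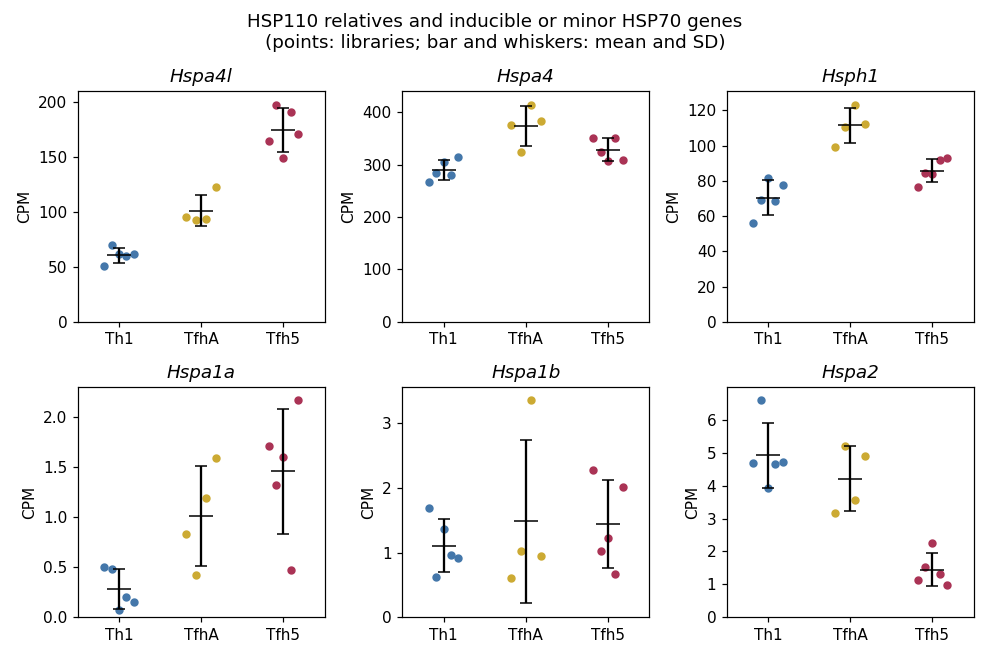
CPM (y axis, from 0) of 6 HSP70 and HSP110 family genes in each library of Th1, TfhA and Tfh5 (x axis), with mean and SD. Hspa4l rises across the 3 groups, Hsph1 has its highest libraries in TfhA, and Hspa1a and Hspa1b stay under 4 CPM in every library.

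J protein genes, the most numerous class, went both ways. Of 37 tested, 9 were higher and 11 lower in Tfh5 than in TfhA, 12 higher and 7 lower in TfhA than in Th1, and 8 higher and 8 lower in Tfh5 than in Th1. The share called either way was 54.1%, 51.4% and 43.2% in these comparisons, against 57.5%, 44.8% and 64.6% of all tested genes. It was near that of all genes between Tfh5 and TfhA and between TfhA and Th1, and below it between Tfh5 and Th1. Whether these shares differ was not tested. Dnajc15, encoding the mitochondrial J protein MCJ that restrains complex I of the respiratory chain, changed most between Tfh5 and TfhA among those at 5 CPM or more in either group. Its level (Entrez 66148, chromosome 14, 77826217 to 77874917) was 41.0, 63.9, 56.6, 54.9 and 61.9 CPM in Th1, 93.1, 88.6, 116 and 134 in TfhA, and 32.7, 25.6, 25.1, 28.7 and 21.5 in Tfh5. The groups did not overlap, with TfhA on top and Tfh5 at the bottom. It fell 4.04-fold from TfhA to Tfh5 (log2 fold change -2.01 ± 0.14, adjusted p = 9.30e-12) and rose 1.94-fold from Th1 to TfhA (log2 fold change 0.95 ± 0.14, adjusted p = 3.61e-06). Dnaja3, the mitochondrial partner of mortalin, stood at 44.8, 45.3, 46.3, 42.6 and 40.2 CPM in Th1, 45.8, 61.0, 60.5 and 52.8 in TfhA, and 38.4, 37.1, 40.5, 36.3 and 29.3 in Tfh5. It fell 1.52-fold from TfhA to Tfh5 (log2 fold change -0.60 ± 0.11, adjusted p = 6.24e-05). It was called higher in TfhA than in Th1 (log2 fold change 0.33 ± 0.11, adjusted p = 0.0191), a call lost without Th1 replicate 5, or TfhA replicate 2 or 4, and with no filter on low counts (adjusted p up to 0.0773). It was called lower in Tfh5 than in Th1 (log2 fold change -0.27 ± 0.11, adjusted p = 0.0270), a call lost without Th1 replicate 2 or 3, or Tfh5 replicate 5 (adjusted p up to 0.0938).

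Several J protein genes were higher in Tfh5 than in TfhA. Dnajb2, which passes clients to the proteasome, stood at 3.41, 6.23, 6.28 and 4.35 CPM in TfhA and 13.6, 12.1, 12.6, 9.21 and 11.3 in Tfh5 and rose 2.33-fold (log2 fold change 1.22 ± 0.21, adjusted p = 2.24e-05). Dnaja4 rose 1.87-fold, from 15.2 ± 1.92 to 28.5 ± 3.05 CPM (log2 fold change 0.90 ± 0.15, adjusted p = 8.83e-06). Both also stood above Th1, with log2 fold changes of 1.10 ± 0.19 and 0.92 ± 0.13. The Dnaja4 transcript shares 51.9% of its 50-base windows with transcripts of Wdr61, with both strands searched. Dnajc28 stepped up through the groups, at 0.935, 2.29, 1.59, 2.01 and 0.761 CPM in Th1, 3.94, 3.84, 2.38 and 4.88 in TfhA, and 6.57, 7.65, 6.70, 6.26 and 9.27 in Tfh5, and was 4.79-fold higher in Tfh5 than in Th1 (log2 fold change 2.26 ± 0.28, adjusted p = 1.28e-07). Dnajc6, encoding auxilin, which strips clathrin from vesicles, was named after its values were seen because it is below the level set for naming. Its level was 0.125, 0.0693, 0.151, 0.139 and 0 CPM in Th1, 0.0758, 0, 0 and 0.212 in TfhA, and 1.43, 1.73, 1.89, 3.89 and 1.49 in Tfh5, above the other groups in every Tfh5 library. It had 113 counts there against 3 in TfhA and 7 in Th1, a ratio of 29.9 to TfhA (95% counting interval 9.99 to 147) and of 21.0 to Th1 (9.85 to 53.4), intervals that cover counting error alone. Most of the TfhA counts lie in replicate 5, and the fitted log2 fold change of 4.72 was 5.74 without that library. Dnajc6 met the 1 CPM limit through Tfh5 alone, so a difference from the other groups follows from how members were chosen, and these values are a description.

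Another set was lowest in TfhA. Dnajb5 stood at 31.5, 22.5, 18.9, 20.7 and 20.8 CPM in Th1, 13.2, 15.6, 14.2 and 12.3 in TfhA, and 26.9, 29.8, 21.2, 22.2 and 38.5 in Tfh5, fell 1.66-fold from Th1 to TfhA (log2 fold change -0.73 ± 0.17, adjusted p = 0.00143) and rose 2.01-fold from TfhA to Tfh5 (log2 fold change 1.01 ± 0.18, adjusted p = 2.58e-05). Dnajb4, its close relative, stood at 11.8, 14.6, 19.7, 19.0 and 17.1 CPM in Th1, 9.85, 9.13, 10.6 and 12.8 in TfhA, and 22.8, 17.7, 23.9, 21.4 and 13.5 in Tfh5, with TfhA lowest on average though it overlapped Th1, and moved the same way (-0.63 ± 0.18 and 0.91 ± 0.18). The membrane J proteins Dnajc18 and Dnajb14 were called in the same directions. Dnajc18 stood at 37.4, 34.7, 40.6, 39.6 and 38.2 CPM in Th1, 32.9, 27.0, 30.4 and 35.6 in TfhA, and 46.9, 42.6, 41.5, 49.6 and 40.0 in Tfh5. It rose 1.40-fold in Tfh5 (log2 fold change 0.49 ± 0.11, adjusted p = 4.79e-04), and its fall from Th1 to TfhA (log2 fold change -0.28 ± 0.11, adjusted p = 0.0413) was lost without Th1 replicate 3, 4 or 5, or TfhA replicate 1, 2 or 4, and with the replicate block (adjusted p up to 0.149). Dnajb14 stood at 10.2, 9.57, 10.4, 8.74 and 11.3 CPM in Th1, 5.38, 7.68, 7.36 and 5.73 in TfhA, and 5.71, 8.16, 10.9, 10.5 and 9.57 in Tfh5. It fell from Th1 to TfhA (log2 fold change -0.62 ± 0.19, adjusted p = 0.0111), and its rise in Tfh5 (log2 fold change 0.46 ± 0.20, adjusted p = 0.0472) was lost without Th1 replicate 2, 3 or 5, or TfhA replicate 1 or 5, or Tfh5 replicate 3, 4 or 5, and with no filter on low counts, with the replicate block, with limma-voom or in a fit of only the 2 groups (adjusted p up to 0.150). Neither Dnajb5 nor Dnajb4 passed between Tfh5 and Th1 (log2 fold change 0.28 ± 0.16, adjusted p = 0.124 and log2 fold change 0.27 ± 0.16, adjusted p = 0.146), though Dnajb5 passed without Th1 replicate 1 and Dnajb4 without Tfh5 replicate 5.

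J proteins highest in TfhA formed the opposite set. Dnajc2 stood at 54.1, 68.6, 62.1, 65.8 and 72.6 CPM in Th1, 76.4, 77.8, 112 and 102 in TfhA, and 72.0, 52.4, 54.9, 47.5 and 54.8 in Tfh5 and rose 1.42-fold from Th1 to TfhA (log2 fold change 0.51 ± 0.13, adjusted p = 0.00215) beside the fall in Tfh5 given above. Dnajc27, which carries a small GTPase domain, stood at 10.1, 6.59, 9.22, 10.3 and 10.2 CPM in Th1, 13.1, 15.4, 14.5 and 11.5 in TfhA, and 9.52, 7.14, 6.32, 8.54 and 4.78 in Tfh5 and fell 1.88-fold in Tfh5 (log2 fold change -0.91 ± 0.19, adjusted p = 2.60e-04). Its rise from Th1 to TfhA (log2 fold change 0.55 ± 0.19, adjusted p = 0.0189) was lost without Th1 replicate 2, or TfhA replicate 2 (adjusted p up to 0.0642). Dnajc9, a chaperone of histones H3 and H4, stood at 100.3, 134, 129, 123 and 128 CPM in Th1, 140.3, 152, 168 and 166 in TfhA, and 122, 95.1, 114, 88.8 and 121 in Tfh5, with a rise of 1.27-fold (log2 fold change 0.35 ± 0.11, adjusted p = 0.0101) and a fall of 1.45-fold (log2 fold change -0.53 ± 0.11, adjusted p = 1.54e-04). Dnajc7 stood at 184, 198, 206, 202 and 224 CPM in Th1, 231, 217, 254 and 235 in TfhA, and 201, 189, 211, 189 and 191 in Tfh5. Its log2 fold changes were smaller (0.21 ± 0.08 from Th1 to TfhA and -0.25 ± 0.08 from TfhA to Tfh5), and its rise from Th1 to TfhA was lost without Th1 replicate 1, 2, 3 or 4, or TfhA replicate 1, 4 or 5, or Tfh5 replicate 2, 3 or 4, and with upper quartile scaling, with no filter on low counts, with the replicate block or in a fit of only the 2 groups (adjusted p up to 0.191). In Hspd1, Dnaja1, Dnajc2 and Dnajc15, TfhA replicates 4 and 5 stood above replicates 1 and 2. The same order stood in many other members, among them Hspa4, Hsph1, Hspa9, Cct4, Cct8, Dnaja2, Dnajb11, Dnajc7, Dnajc8, Dnajc9, Dnajc21 and Hsf2. The reverse order stood in others, among them Hspa8, Dnajb1, Hspbp1, Hspbap1, Dnajc4, Dnajc5, Dnajc30 and Hsf1. TfhA replicates 4 and 5 were also the shallowest libraries of all, at 8805921 and 9439295 counts. The part of depth in these orders was not tested.

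**Figure D5:**
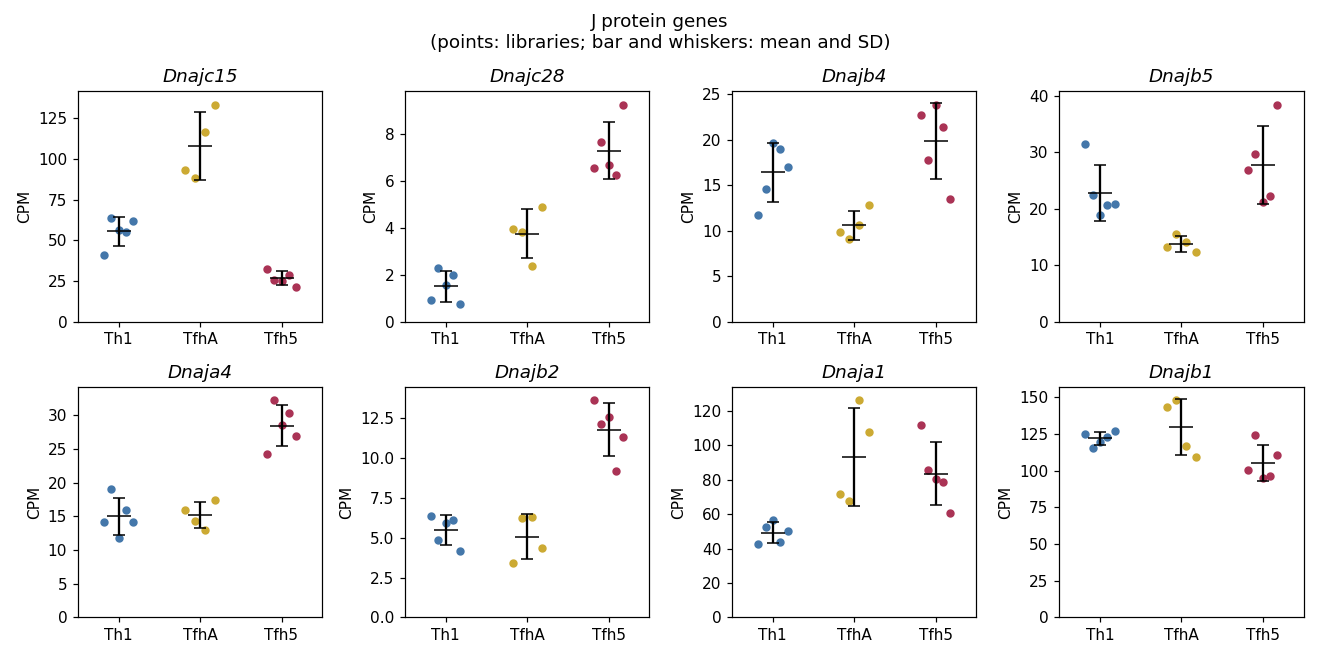
CPM (y axis, from 0) of 8 J protein genes in each library of Th1, TfhA and Tfh5 (x axis), with mean and SD. Dnajc15 is highest in TfhA and lowest in Tfh5, Dnajc28 rises across the groups, and Dnajb4 and Dnajb5 are lowest in TfhA.

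Of the J proteins best known as partners of cytosolic HSP70, Dnaja1 stood at 42.5, 52.8, 56.9, 44.0 and 50.4 CPM in Th1, 71.7, 67.6, 126.2 and 108 in TfhA, and 112, 86.0, 80.7, 78.8 and 60.8 in Tfh5. It rose 1.89-fold from Th1 to TfhA (log2 fold change 0.92 ± 0.16, adjusted p = 6.67e-05) and stayed above Th1 in Tfh5 (log2 fold change 0.76 ± 0.16, adjusted p = 1.55e-04), while Tfh5 and TfhA overlapped (log2 fold change -0.16 ± 0.16, adjusted p = 0.429). The Dnaja1 transcript shares 28.8% of its 50-base windows with transcripts of other genes. Dnajb1, the HSP40 of the heat shock response, stood at 125, 116, 119, 123 and 127 CPM in Th1, 144, 148, 117 and 109.6 in TfhA, and 101, 124, 95.1, 96.2 and 111 in Tfh5. It was 1.23-fold lower in Tfh5 than in TfhA with overlapping libraries (log2 fold change -0.30 ± 0.10, adjusted p = 0.0153), a call lost without TfhA replicate 1 or 2 (adjusted p up to 0.0823). Against Th1 it did not pass (log2 fold change -0.21 ± 0.10, adjusted p = 0.0598), though it did with DESeq2, limma-voom, upper quartile scaling or no filter on low counts, and without TfhA replicate 5 or Tfh5 replicate 2. Dnaja2 stood at 217 ± 17.2 CPM in Th1, 257 ± 31.3 in TfhA and 240.4 ± 26.5 in Tfh5, and its rise from Th1 to TfhA (log2 fold change 0.25 ± 0.10, adjusted p = 0.0451) was lost in 12 of 20 alternatives, namely without Th1 replicate 1, 3, 4 or 5, or TfhA replicate 4 or 5, or Tfh5 replicate 3, and with DESeq2, with upper quartile scaling, with no filter on low counts, with the replicate block or in a fit of only the 2 groups (adjusted p up to 0.170).

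The remaining named J proteins were mostly specialised ones. Dnajc21, which helps to mature the large ribosomal subunit, fell 1.74-fold in Tfh5 (109.5 ± 26.0 to 62.7 ± 3.63 CPM, log2 fold change -0.80 ± 0.12, adjusted p = 4.19e-06). Dnajc10, an oxidoreductase of the endoplasmic reticulum, stepped down from 279.6 ± 13.7 CPM in Th1 to 200.2 ± 9.06 in TfhA and 153 ± 11.9 in Tfh5 (log2 fold changes -0.48 ± 0.08 and -0.39 ± 0.08). Dnajc12 was lower in Tfh5 (log2 fold change -0.65 ± 0.23, adjusted p = 0.0168), and also below Th1 (log2 fold change -0.60 ± 0.21, adjusted p = 0.0164), the latter lost without Th1 replicate 2 (adjusted p up to 0.0762). Dnajc16 fell from Th1 to TfhA (log2 fold change -0.51 ± 0.13, adjusted p = 0.00301) and did not pass between TfhA and Tfh5 (log2 fold change 0.07 ± 0.14, adjusted p = 0.687). Dnajc5, the cysteine string protein of secretory vesicles, was lower in Tfh5 than in Th1 (log2 fold change -0.30 ± 0.09, adjusted p = 0.00534). Dnajb12 fell from Th1 to TfhA (log2 fold change -0.40 ± 0.15, adjusted p = 0.0314), lost without Th1 replicate 2, or TfhA replicate 1 or 4 (adjusted p up to 0.126). Dnajc24, of the pathway that makes diphthamide, was above Th1 in Tfh5 (log2 fold change 0.49 ± 0.14, adjusted p = 0.00362). Above Th1 in both Tfh cultures were Dnajc25 and Dnajb11, at log2 fold changes of 0.67 ± 0.21 and 0.35 ± 0.12 in TfhA. The TfhA call of Dnajc25 was lost without TfhA replicate 5 (adjusted p up to 0.0566) and that of Dnajb11 without Th1 replicate 3 or 4, or TfhA replicate 4, and with the replicate block (adjusted p up to 0.153). In Tfh5 the call of Dnajc25 (log2 fold change 0.50 ± 0.20, adjusted p = 0.0286) was lost without Th1 replicate 1 or 4, or Tfh5 replicate 2, 4 or 5 (adjusted p up to 0.0836), and that of Dnajb11 (log2 fold change 0.30 ± 0.12, adjusted p = 0.0294) without Th1 replicate 3 or 4, or Tfh5 replicate 1 or 4 (adjusted p up to 0.154).

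Of the 4 members with Hspb symbols, Hspb6 encodes a small heat shock protein and Hspb11 a part of the ciliary transport machinery, while the other two name partners of chaperones. Hspb6 stood at 11.5, 11.6, 10.1, 11.03 and 11.8 CPM in Th1, 5.68, 5.89, 7.25 and 4.25 in TfhA, and 6.47, 6.42, 4.81, 3.99 and 7.85 in Tfh5. Th1 lay above both Tfh cultures, with a 1.94-fold fall to TfhA (log2 fold change -0.96 ± 0.20, adjusted p = 3.73e-04) and no further call in Tfh5 (log2 fold change 0.04 ± 0.21, adjusted p = 0.883). Hspbp1, an exchange factor of HSP70, stood at 50.7, 44.6, 38.6, 34.1 and 36.9 CPM in Th1, 38.9, 40.4, 35.5 and 28.9 in TfhA, and 30.1, 16.8, 23.1, 19.3 and 21.0 in Tfh5 and fell 1.63-fold in Tfh5, with 1 Tfh5 library above the lowest TfhA library (log2 fold change -0.71 ± 0.15, adjusted p = 3.25e-04). Hspbap1, a member of the jumonji C family named for its binding to a small heat shock protein, moved the other way, at 14.7, 12.9, 15.3, 13.5 and 14.5 CPM in Th1, 21.3, 20.4, 17.5 and 19.8 in TfhA, and 30.7, 27.2, 29.9, 29.4 and 31.7 in Tfh5. Its groups did not overlap, and it rose 1.505-fold with TGF-β (log2 fold change 0.59 ± 0.12, adjusted p = 1.14e-04) and 1.40-fold from Th1 to TfhA (log2 fold change 0.48 ± 0.12, adjusted p = 0.00164). Hspb11 did not pass in any comparison, though it did between Tfh5 and Th1 without Th1 replicate 1.

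Of the heat shock factor genes, only Hsf2 was called, in 1 comparison. Hsf1, the main activator of the heat shock response, stood at 39.7, 34.6, 34.6, 34.9 and 30.9 CPM in Th1, 34.0, 39.2, 25.6 and 26.9 in TfhA, and 41.1, 31.0, 32.0, 32.0 and 33.9 in Tfh5. The 3 groups overlapped, and no comparison passed (log2 fold change 0.11 ± 0.13, adjusted p = 0.495 between Tfh5 and TfhA). Hsf2 stood at 56.8, 70.7, 84.4, 82.9 and 75.3 CPM in Th1, 57.8, 42.7, 67.1 and 70.9 in TfhA, and 70.6, 54.9, 61.1, 61.7 and 44.8 in Tfh5. It was called lower in Tfh5 than in Th1 with overlapping libraries (log2 fold change -0.34 ± 0.13, adjusted p = 0.0309), a call lost without Th1 replicate 3, 4 or 5, or Tfh5 replicate 2 or 5 (adjusted p up to 0.107). Between TfhA and Th1 its value was nearly as large but did not pass (log2 fold change -0.31 ± 0.14, adjusted p = 0.0783), though it did with no filter on low counts and without Th1 replicate 1 or TfhA replicate 5. Between Tfh5 and TfhA it did not pass (log2 fold change -0.02 ± 0.14, adjusted p = 0.901). The activity of these factors was not measured.

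Cochaperones of HSP90 and HSP70, from a list of 23 genes outside the members, had 10 members lower and 4 higher in Tfh5 than in TfhA, with a median log2 fold change of -0.25, and the number called is near the 57.5% of all tested genes. Bag2, an inhibitor of client ubiquitination, fell from 31.0 ± 2.05 to 10.8 ± 2.07 CPM (2.86-fold). Stip1, which ties HSP70 to HSP90, fell from 434 ± 19.3 to 209.9 ± 15.0 CPM (2.07-fold), and the immunophilin gene Fkbp5 1.76-fold. Unc45a, a myosin chaperone, rose 1.62-fold. Between TfhA and Th1, 6 of the 23 were higher and 3 lower (all tested genes 23.2% and 21.6%). Of 12 genes outside the members that respond to heat shock, 9 could be tested, and 2 (Bag3 and Chordc1) are also in the cochaperone list. Of the 9 tested, 2 were higher and 2 lower in Tfh5 than in TfhA (all tested genes 57.5% either way). Between TfhA and Th1, 3 were higher and 1 lower in TfhA (all tested genes 44.8% either way). Bag3, lower, and Chordc1, higher, are among those last calls and were already counted with the cochaperones. Cacybp rose 1.57-fold from Th1 to TfhA and fell 1.76-fold in Tfh5.

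At the limit of the rule, the members with the lowest peaks were Cct6b at 1.39 CPM in its highest library, Dnajb7 at 1.57 and Dnajb3 at 1.80. Just outside were Dnajc5b at 0.971, Hspa12a at 0.854 and Hspa12b at 0.747 CPM. A gene that clears such a limit through a single group has to differ between groups, so counts over the lowest members carry no weight. Cct6b, Dnajc6 and Hspa1a, which have no library at 1 CPM in at least 1 group, are among the members counted above as called and as called at 2-fold or more. Cct6b and Dnajc6 are also among those counted without overlap in both comparisons with Tfh5. The remaining tested members, Dnajb13, Dnajc1, Dnajc4, Dnajc13, Dnajc14, Dnajc17, Dnajc19 and Dnajc30, did not pass in any comparison. Dnajc19 was near the threshold between TfhA and Th1 (log2 fold change 0.60 ± 0.25, adjusted p = 0.0532) and passed with DESeq2, with limma-voom and without Th1 replicate 3, TfhA replicate 2 or Tfh5 replicate 3. It also passed between Tfh5 and Th1 without Th1 replicate 3 or Tfh5 replicate 3, and Dnajc4 between Tfh5 and TfhA without Tfh5 replicate 4. Dnajc11, of the complexes that shape mitochondrial membranes, fell 1.34-fold in Tfh5 (log2 fold change -0.43 ± 0.11, adjusted p = 0.00252), and Dnajc8, a splicing-linked J protein, rose 1.27-fold from Th1 to TfhA (log2 fold change 0.35 ± 0.11, adjusted p = 0.0122), lost without TfhA replicate 4 (adjusted p up to 0.0582).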

How the data were processed

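Bulk RNA was sequenced from 14 libraries of sorted CD4 T cells (SENSE mRNA libraries from 100 ng of RNA, per the labels). The authors deposited raw counts per Entrez gene, made with STAR 2.7.2b and featureCounts 1.6.4 on mm10, per the submitters' processing notes. The annotation, strand setting and treatment of reads with several matches were not given in the sources used here. Values in the series table matched all 14 single files exactly, and 0 of its columns belong to other samples. Symbols came from RefSeq (GRCm38.p6) for 25275 of 27179 genes. Transcript lengths and shared 50-base windows came from the longest protein-coding GENCODE M21 transcript of each member. Windows were searched on both strands of other genes' transcripts. A shared window can therefore be an overlap with a gene read from the opposite strand, and need not be a repeated sequence.

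Counts of all 14 libraries entered 1 fit in edgeR 4.0.16 (R 4.3.3), with group means, filterByExpr (13075 genes), TMM scaling and the two-sided quasi-likelihood F test. The call threshold was a Benjamini-Hochberg adjusted p of 0.05 over all tested genes. CPM use TMM-scaled totals, and the SE is the log2 fold change divided by the square root of F. The common biological coefficient of variation was 14.2%. The fit was tested on simulated data in which few genes changed, as many up as down. Far more genes were called in the real data, so that test does not cover how scaling behaves there.

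Alternatives were DESeq2 1.42.0, limma-voom (limma 3.58.1), upper quartile scaling, no filter on low counts, a fit of 2 groups, replicate number as a block, and each library left out. Named were all tested members except among J proteins and Hspb symbols, where the 6 highest and 6 lowest called members of those at 5 CPM or more in either group were taken per comparison, plus Dnaja1, Dnajb1 and Dnaja2. The other J proteins and Hspb genes were added after their values were seen, so that all members are accounted for. Members, lists and alternatives were chosen with earlier results of these data known.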

Additional observations from a re-analysis of the deposited data

Results flagged for a closer look

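In 16 of 201 sets of libraries (67 tested members in 3 groups), 1 library stood apart from the rest of its group by a gap above Dixon's 95% critical value  for the gap over the range. Chance flags about 1 in 20 sets. Cct6b stood at 1.39 CPM in Th1 replicate 2, above the 0.624 to 0.832 of the other Th1 libraries. Hspe1 stood at 49.95 CPM in Th1 replicate 5, above the 36.3 to 38.3 of the other Th1 libraries. Hspa13 stood at 31.3 CPM in Th1 replicate 1, below the 38.6 to 41.3 of the other Th1 libraries. Hsp90aa1 stood at 81.8 CPM in Th1 replicate 3, above the 69.8 to 72.6 of the other Th1 libraries. Hsp90ab1 stood at 3823 CPM in Th1 replicate 1, above the 3172 to 3239.5 of the other Th1 libraries. Dnajb5 stood at 31.5 CPM in Th1 replicate 1, above the 18.9 to 22.5 of the other Th1 libraries. Dnajc14 stood at 51.3 CPM in Th1 replicate 1, above the 36.8 to 39.8 of the other Th1 libraries. Dnajc27 stood at 6.59 CPM in Th1 replicate 2, below the 9.22 to 10.3 of the other Th1 libraries. Th1 replicate 1 was the library concerned for Hsp90ab1, Dnajb5, Dnajc14 and Hspa13.

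Hspa1b stood at 3.36 CPM in TfhA replicate 4, above the 0.606 to 1.02 of the other TfhA libraries. Hspa1l stood at 3.61 CPM in TfhA replicate 5, above the 2.42 to 2.56 of the other TfhA libraries. Hspa4l stood at 122 CPM in TfhA replicate 5, above the 92.6 to 95.4 of the other TfhA libraries. Hspa9 stood at 322 CPM in TfhA replicate 4, above the 229 to 241 of the other TfhA libraries. Dnajc1 stood at 88.5 CPM in TfhA replicate 4, above the 58.3 to 61.6 of the other TfhA libraries. TfhA replicate 4, with the lowest total of all libraries, was the one concerned for Hspa1b, Hspa9 and Dnajc1.

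Hsp90aa1 stood at 12.3 CPM in Tfh5 replicate 1, below the 25.6 to 28.0 of the other Tfh5 libraries. Dnajc6 stood at 3.89 CPM in Tfh5 replicate 4, above the 1.43 to 1.89 of the other Tfh5 libraries. Hsf1 stood at 41.1 CPM in Tfh5 replicate 1, above the 31.0 to 33.9 of the other Tfh5 libraries. Without Tfh5 replicate 1, the log2 fold change of Hsp90aa1 from TfhA to Tfh5 was -1.40, against -1.57 with it.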

How the results depend on the processing

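Across alternatives the counts of members called stayed within 1.5 times of those reported, except that 20 members higher in TfhA than in Th1 became 12 without TfhA replicate 4. With 1 library left out, 9 to 12 members were called higher and 29 to 31 lower in Tfh5 than in TfhA, 12 to 21 higher and 8 to 12 lower in TfhA than in Th1, and 10 to 14 higher and 25 to 29 lower in Tfh5 than in Th1. Of 4012 fits of single members under alternatives, 126 lost a call, 48 gained one and 0 reversed a call, while 21 of 480 counts over related gene lists moved by over 1.5 times. All alternatives considered, 38 of 42 calls between Tfh5 and TfhA held throughout, 17 of 30 between TfhA and Th1, and 33 of 40 between Tfh5 and Th1. Those that held include Cct6b and Dnajc6 in both comparisons with Tfh5, and Hspa1a between Tfh5 and Th1. These calls follow from how members were chosen and carry no weight. With the replicate block, 9 members were higher and 30 lower in Tfh5 than in TfhA. Same-numbered libraries deviated together with correlations of -0.05 to 0.16, so the numbers were not taken to pair the samples, and not every library correlated best with its own number. For the Hsp90aa1 to Hsp90ab1 ratio, sign flips within replicate numbers as the block gave log2 differences of -1.08 (Tfh5 and TfhA, exact p = 0.125), 0.47 (TfhA and Th1, exact p = 0.125) and -0.61 (Tfh5 and Th1, exact p = 0.0625), where 4 or 5 pairs cannot reach 0.05, and the medians differed by -0.74 between Tfh5 and TfhA. With 1 library left out the log2 difference of the Hspe1 to Hspd1 ratio between Tfh5 and Th1 was 0.24 to 0.66, the highest without Tfh5 replicate 5. The cause of these changes was not tested. Depth limits what can be said of members near 1 CPM.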

Other observations

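The endoplasmic reticulum chaperone genes that the rule leaves out did not move together. Between TfhA and Tfh5, Hsp90b1, the HSP90 of that compartment, fell 1.94-fold (882 ± 168 to 454 ± 22.6 CPM, log2 fold change -0.96 ± 0.10, adjusted p = 2.11e-08) and its HSP70, Hspa5, fell 1.46-fold (log2 fold change -0.54 ± 0.09, adjusted p = 9.26e-06). The J protein genes left out by name rose, Dnajb9 2.16-fold (23.5 ± 2.74 to 50.7 ± 4.67 CPM, log2 fold change 1.11 ± 0.14, adjusted p = 1.56e-07) and Dnajc3 1.46-fold (log2 fold change 0.55 ± 0.10, adjusted p = 7.94e-05). The J protein members listed at the outset for that compartment or its membrane did not all follow. Dnajc10 fell (log2 fold change -0.39 ± 0.08, adjusted p = 3.29e-04), Dnajb14 and Dnajc18 were called higher, and Dnajb11, Dnajc1 and Dnajb12 did not pass.

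Dnajc19, of the mitochondrial import motor, stood at 3.03 ± 0.803, 4.600 ± 0.947 and 4.23 ± 0.721 CPM in Th1, TfhA and Tfh5, below its annotated pseudogene Dnajc19-ps at 10.9 ± 1.62, 13.6 ± 2.15 and 13.1 ± 1.84.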
